A study of Homo sapiens with 15 samples.

Results

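The SR protein genes (SRSF) and the HNRNP genes encode most of the classical RNA-binding regulators of pre-mRNA splicing, and their mRNA levels were compared between LNCaP cells treated with androgen alone and with androgen plus enzalutamide, a drug that blocks androgen signalling. Members were taken by symbol, as every row named SRSF followed by a number or HNRNP followed by letters and numbers, which gave 35 of the 17272 rows, 12 SRSF and 23 HNRNP. Another 41 HNRNP rows were left out as pseudogenes by their names. LNCaP is an established androgen-sensitive human prostate cancer cell line. All cells were kept for 2 days in medium with charcoal-stripped serum, which is poor in androgen, and were then stimulated with 1 nM of the synthetic androgen R1881. The R1881 + DMSO group had 10 libraries, and the R1881 + enzalutamide group, which also received 2 µM enzalutamide, had 5, all from cells collected after 22 h. No group without R1881 was analysed here, and a single cell line stands behind every value.

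SR proteins carry RNA recognition motifs (RRMs) and a tail rich in arginine and serine, bind enhancer sequences in exons, and help to recruit the spliceosome to nearby splice sites. HnRNP proteins coat newly made transcripts, and many of them, such as hnRNP A1, silence exons and oppose SR proteins at the same sites, while others act on mRNA stability and transport. Many of these genes also regulate their own mRNA through alternative exons that lead to nonsense-mediated decay. Values per gene, as used here, do not separate such transcripts and say nothing of protein levels or of splicing itself.

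Between 15830745 and 24316740 reads per library were counted with R1881 + DMSO and between 21188661 and 25416052 with R1881 + enzalutamide. Each value is given as deposited, in CPM (read counts scaled by a library size that the authors had adjusted). The androgen-induced genes served as a check of the treatment. All 5 on the list fell with enzalutamide, and FKBP5, a co-chaperone of steroid receptors, had the lowest log2 fold change at -4.99. KLK3, a luminal prostate marker, had 1345 to 1868 CPM with R1881 + DMSO and 124 to 145 CPM with R1881 + enzalutamide, and FOLH1, another, had 672 to 800.2 and 1416 to 1593 CPM. Of 10 markers of basal, stromal, immune and endothelial cells, KRT14, COL1A1 and VWF had a row and summed to at most 15.9 CPM in any library. By the labels, the R1881 + DMSO libraries carry the numbers 51 to 55 and 71 to 75 and those with enzalutamide 81 to 85, so that a difference between these number series and the effect of enzalutamide cannot be told apart. The log2 fold change was lower against libraries 51 to 55 than against 71 to 75 for 27 of the 35 members, and values against each series are given for the members whose call or size turned on it. R1881 + enzalutamide replicate 2 had the lowest value of its group for many members and stood apart from the other 4 libraries for SRSF3, SRSF9 and HNRNPK. In bulk RNA, fewer cells of a type and less RNA per cell cannot be told apart.

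With enzalutamide, 9 of the 12 SR protein genes had lower mRNA (5 of 12 with plain library totals and 6 of 12 in an edgeR fit), whereas the HNRNP genes were mixed. The mean decreased by 47.9% for SRSF12, decreased by 18.8% for SRSF2 and decreased by 6.51% for SRSF9, the smallest called decrease. Of the 35 members, all of which passed the filter on low values, 17 were called lower and 3 higher at an adjusted p under 0.05 in a limma fit over 17046 genes, and 15 were not called. In the same fit, 32.7% of all tested genes were called lower and 29.8% higher. Among the 12 SRSF genes 9 (75%) were lower and none higher, and among the 23 HNRNP genes 8 (34.8%) were lower and 3 (13%) higher. The HNRNP share of lower genes was thus near that of all genes. With only genes at a mean of at least 5 CPM, 39.3% of 12164 genes were lower and 28.9% higher, at a median log2 fold change of -0.05. In that setting 8 of 11 SRSF genes were lower and 0 higher, and 8 of 23 HNRNP genes were lower and 3 higher. The median log2 fold change was -0.16 for SRSF and -0.03 for HNRNP, beside -0.01 for all tested genes. With plain library totals set to 1000000, 5 SRSF genes were lower and 1 higher, 6 HNRNP genes were lower and 7 higher, the HNRNP median turned to 0.06, and 25.2% of all genes were lower and 39% higher. In the edgeR fit, 6 SRSF genes were lower and 0 higher, and 6 HNRNP genes were lower and 6 higher, beside 29% and 34% of all genes. Without R1881 + enzalutamide replicate 2, 8 SRSF genes were lower and none higher, and 8 HNRNP genes were lower and 4 higher, with an HNRNP median of 0.00. In that setting 32.5% of all genes were lower and 29.4% higher.

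For 11 members, all enzalutamide libraries were below the lowest R1881 + DMSO library, as were 20.1% of all tested genes. These were SRSF1, SRSF2, SRSF4, SRSF7, SRSF8, SRSF9, SRSF12, HNRNPA3, HNRNPAB, HNRNPF and HNRNPM. No member lay above in every library, against 17.1% of all genes. Of the 35 means, 21 moved by less than 10%. Only SRSF12 was called lower with a fold of at least 1.5 and no member higher, beside 9.55% and 9.06% of all tested genes. The median absolute log2 fold change was 0.12 over the members and 0.24 over all tested genes. All tested genes reach down to a mean of 0.5 CPM, whereas 31 of the 35 members had at least 50 CPM with R1881 + DMSO. Sizes were not compared with genes of a like level. The median coefficient of variation between libraries was 4.95% over the members with R1881 + DMSO and 4.36% with R1881 + enzalutamide. It was not compared with that of other genes.

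**Figure D1:**
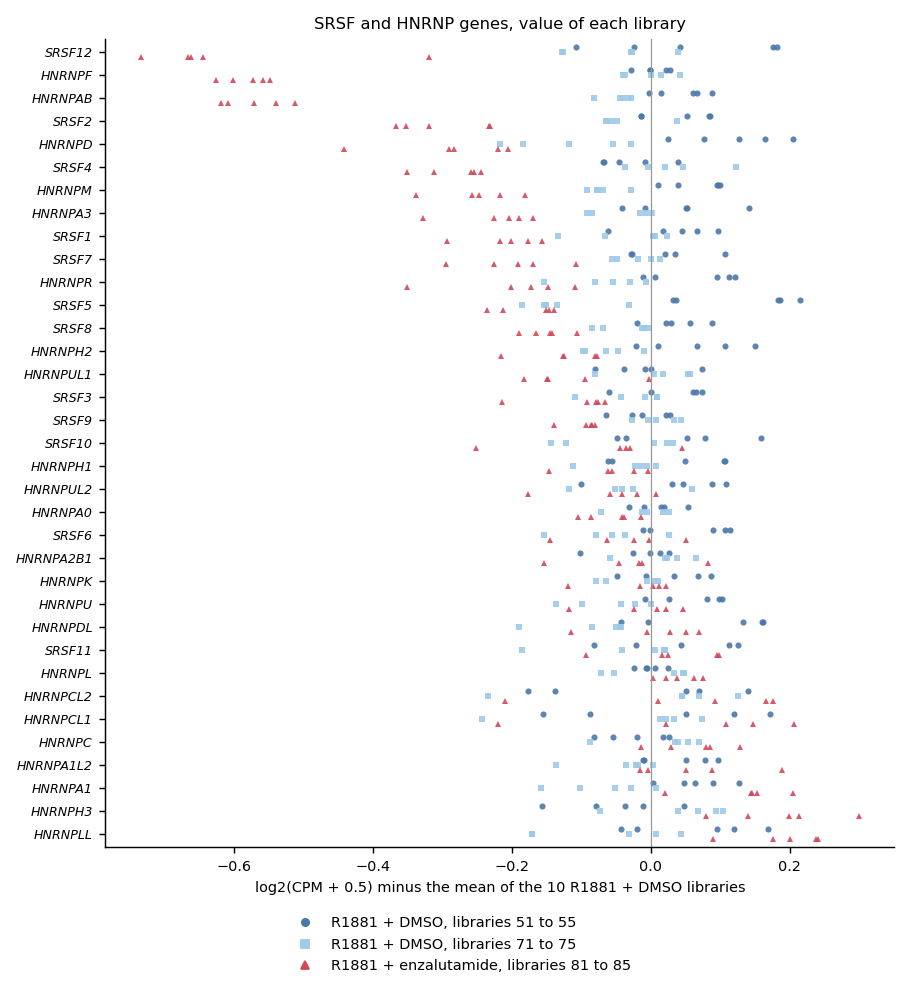
Value of each library for each SRSF and HNRNP gene, as log2(CPM + 0.5) minus the mean of the 10 R1881 + DMSO libraries (horizontal axis), with genes ordered by their fold change (vertical axis). Each point is a library, dark circles libraries 51 to 55, light squares 71 to 75 and triangles the 5 R1881 + enzalutamide libraries, which for HNRNPF and HNRNPAB lie well to the left of all others and for HNRNPK and HNRNPU lie among them.

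Per kilobase of transcript, HNRNPK, which binds C-rich RNA through KH domains, was the most abundant member at 318 ± 11.9 CPM per kb (SD, n = 10) with R1881 + DMSO and 313 ± 12.2 CPM per kb (n = 5) with R1881 + enzalutamide. HNRNPC, which binds uridine tracts, and HNRNPA2B1, a core particle protein, followed with R1881 + DMSO levels of 191 ± 7.47 and 187 ± 6.34 CPM per kb, which did not differ beyond their spread. HNRNPF and SRSF9 came next, at 160 ± 3.11 and 158 ± 3.67 CPM per kb, also within their spread. With enzalutamide HNRNPF was at 107 ± 2.38 and SRSF9 at 148 ± 2.48 CPM per kb. Leading members of the other classes with R1881 + DMSO were HNRNPL at 133 ± 3.71, SRSF2 at 100.5 ± 4.23, HNRNPM at 85.7 ± 4.71, HNRNPU at 74.7 ± 4.16, HNRNPD at 72.0 ± 7.23 and HNRNPR at 23.5 ± 1.44 CPM per kb. SRSF12 was the least abundant member, at 0.343 ± 0.0383 CPM per kb, and 31 of the 35 members had a mean of at least 50 CPM. These levels leave out reads counted at pseudogene or like copies. Copies held 168% of the CPM of HNRNPA1, itself at 113 CPM per kb, and 53.3% of that of HNRNPC. The order of the leading members thus depends on how reads that match several places were counted.

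Among the SR proteins with a pair of RRMs, 4 of 5 genes were lower. SRSF4 encodes a regulator with a long arginine and serine tail. Its R1881 + DMSO libraries ranged from 61.4 to 70.2 CPM with a median of 64.1, and the R1881 + enzalutamide libraries 81 to 85 had 50.4, 54.3, 51.8, 53.9 and 53.8 CPM. The groups did not overlap, and the log2 fold change was -0.28 ± 0.04 (SE, adjusted p = 1.06e-06). SRSF1, the prototype of the family and a known proto-oncogene, had 228 to 268 CPM with a median of 252 with R1881 + DMSO. With R1881 + enzalutamide it had 218, 215, 204, 221 and 225 CPM, again without overlap, at a log2 fold change of -0.21 ± 0.04 (adjusted p = 4.22e-05). Its nearest relative SRSF9 moved less, from 174 to 188 CPM with a median of 183 with R1881 + DMSO to 172, 171, 165, 172 and 172 CPM. The log2 fold change of SRSF9 was -0.10 ± 0.03 (adjusted p = 0.00399), and it was not called in the edgeR fit (adjusted p = 0.0671) or with plain library totals (adjusted p = 0.915). SRSF5 went from a mean of 164 ± 17.8 to 144 ± 4.39 CPM, with groups that overlapped. Its log2 fold change was -0.31 against libraries 51 to 55 (adjusted p = 4.53e-06) and -0.05 against libraries 71 to 75 (adjusted p = 0.323), so its call rested on the first series. The call of SRSF5 was also lost in the edgeR fit and with plain library totals. SRSF6 was not called over all libraries, at 294 ± 17.6 and 286 ± 14.4 CPM, and was lower only against libraries 51 to 55 (log2 fold change -0.10, adjusted p = 0.0483) among the alternatives.

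Among the SR proteins with 1 RRM, 5 of 7 genes were lower. SRSF2, which binds exonic enhancers and is recurrently mutated in myeloid malignancies, had 181 to 201 CPM with a median of 188 with R1881 + DMSO. With R1881 + enzalutamide it had 161, 152, 147, 148 and 161 CPM, below every R1881 + DMSO library, at a log2 fold change of -0.30 ± 0.04 (adjusted p = 3.14e-07). SRSF8 is an intronless relative of SRSF2 and had 149 to 168 CPM with a median of 158 with R1881 + DMSO, and 143, 141, 139, 143 and 147 CPM with R1881 + enzalutamide. Its groups did not overlap either, and its log2 fold change was -0.15 ± 0.03 (adjusted p = 0.000331), although it was not called with plain library totals (adjusted p = 0.0913). SRSF3, the shortest SR protein, had 283 to 321 CPM with a median of 306 with R1881 + DMSO and 289, 292, 263, 286 and 290 CPM with R1881 + enzalutamide. These groups overlapped, and its log2 fold change of -0.11 ± 0.03 (adjusted p = 0.0117) was not called without R1881 + enzalutamide replicate 2, at -0.08 (adjusted p = 0.0524). Against libraries 51 to 55 it was -0.13 (adjusted p = 0.00575) and against libraries 71 to 75 it was -0.08 (adjusted p = 0.0963), so its call rested on the first series, and it was not called in the edgeR fit (adjusted p = 0.0837) or with plain library totals (-0.01, adjusted p = 0.75) either. SRSF7, a relative of SRSF3 with a zinc knuckle, was lower without overlap, from 132 ± 4.48 to 115 ± 5.56 CPM (log2 fold change -0.20 ± 0.03).

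SRSF12, a tissue-restricted protein that opposes other SR proteins, had the lowest fold change of all members but few reads. It had 1.08 to 1.46 CPM with a median of 1.20 with R1881 + DMSO and 0.591, 0.884, 0.605, 0.588 and 0.539 CPM with R1881 + enzalutamide, where the median library held 13 reads. The log2 fold change on the log2(CPM + 0.5) scale was -0.60 ± 0.09 (adjusted p = 1.06e-05), and edgeR, without that added value, gave -0.90. SRSF10, its abundant relative that represses splicing when dephosphorylated, and SRSF11, which contacts spliceosome components, were not called, at log2 fold changes of -0.06 and 0.03.

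**Figure D2:**
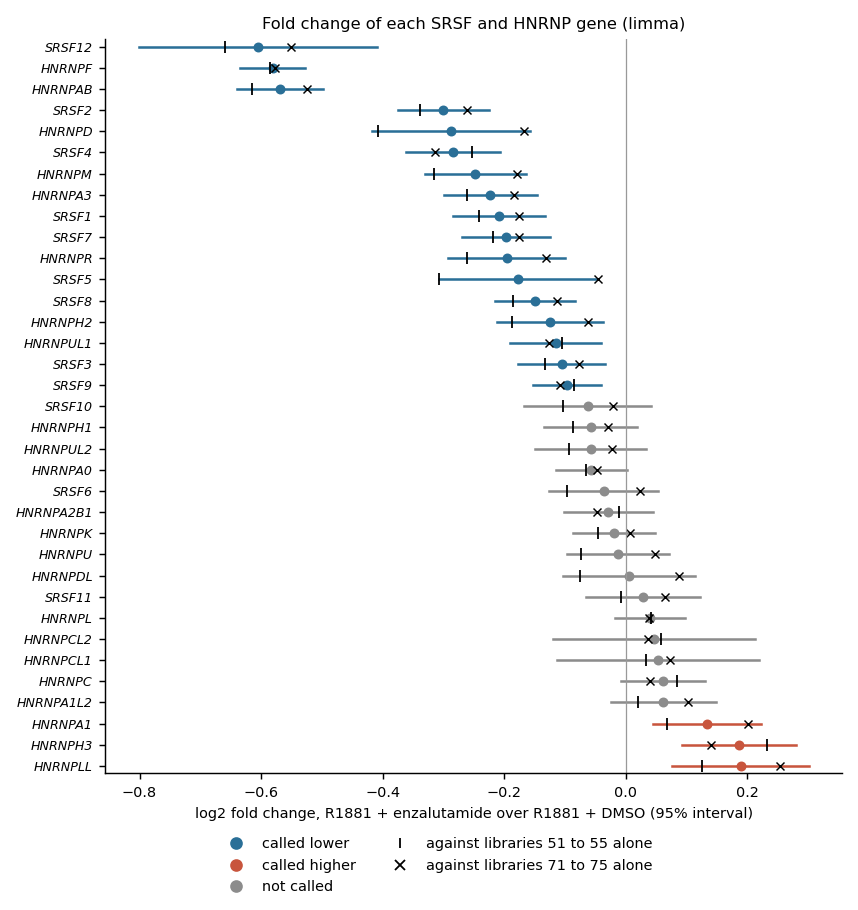
Log2 fold change of R1881 + enzalutamide over R1881 + DMSO (horizontal axis) for each gene (vertical axis), with dots and 95% intervals from the limma fit on all 15 libraries, vertical ticks for the comparison with libraries 51 to 55 alone and crosses for libraries 71 to 75 alone. HNRNPF had nearly the same value against both series (-0.58 and -0.58), whereas HNRNPD had -0.41 and -0.17 and SRSF5 -0.31 and -0.05. The values of HNRNPK, HNRNPU, HNRNPA2B1, HNRNPA0, HNRNPH1, HNRNPUL2, SRSF6 and SRSF10, which lie left of zero here, lie right of zero with plain library totals.

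The hnRNP F/H genes, whose proteins bind runs of G, moved in opposite directions. HNRNPF (chr10:43385617-43409186 on GRCh38, minus strand, 4 exons) had 399 to 422 CPM with a median of 410.0 with R1881 + DMSO. With R1881 + enzalutamide its libraries 81 to 85 had 270.0, 266, 278, 276 and 280.3 CPM. These groups were far apart, with a decrease of the mean by 33.2% and a log2 fold change of -0.58 ± 0.03 (adjusted p = 3.17e-14). HNRNPH2, on the X chromosome, was lower by a small amount, from 146 ± 8.68 to 134 ± 5.14 CPM, with a log2 fold change of -0.12 ± 0.04 (adjusted p = 0.0128) that was -0.06 against libraries 71 to 75 (adjusted p = 0.164). The call of HNRNPH2 was also lost in the edgeR fit and with plain library totals. HNRNPH1, the most abundant of the H genes, was not called, at 310.2 ± 15.4 and 298 ± 11.2 CPM. HNRNPH3 was higher, from 81.0 to 97.1 CPM with a median of 91.2 with R1881 + DMSO to 104, 105, 95.4, 99.5 and 111 CPM with R1881 + enzalutamide. Only replicate 2 of HNRNPH3 fell within the R1881 + DMSO range, and the log2 fold change was 0.19 ± 0.05 (adjusted p = 0.00126), with 0.23 against libraries 51 to 55 and 0.14 against libraries 71 to 75.

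The A/B class also divided. HNRNPAB (chr5:178204533-178211163, plus strand, 8 exons), which binds RNA and CArG-type DNA elements, had 133 to 150.1 CPM with a median of 139.7 with R1881 + DMSO. With R1881 + enzalutamide it had 98.9, 92.4, 91.8, 94.9 and 97.01 CPM. Its mean decreased by 32.7%, with a log2 fold change of -0.57 ± 0.03 (adjusted p = 4.88e-12). HNRNPA3, a core particle relative of hnRNP A1, was lower without overlap, from 376 ± 18.2 to 322 ± 13.5 CPM (log2 fold change -0.22 ± 0.04). HNRNPA1, the best-known exon silencer, was slightly higher, from 380.0 to 463 CPM with a median of 426 with R1881 + DMSO to 469, 489, 430.1, 472 and 469 CPM with R1881 + enzalutamide. Of these 5 libraries, 4 lay above the R1881 + DMSO range, and the log2 fold change was 0.13 ± 0.04 (adjusted p = 0.00958). Against libraries 51 to 55 it was 0.07 (adjusted p = 0.131) and against libraries 71 to 75 it was 0.20 (adjusted p = 0.000749). HNRNPA2B1, HNRNPA0 and the intronless HNRNPA1L2 were not called, at log2 fold changes of -0.03, -0.06 and 0.06.

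Because HNRNPAB had a low fold change in every setting and its start region holds no annotated exon upstream, the 120 bases before its start are shown (RefSeq, GRCh38.p14, chr5:178204413-178204532, plus strand), with CCAAT in capitals.
HNRNPAB upstream: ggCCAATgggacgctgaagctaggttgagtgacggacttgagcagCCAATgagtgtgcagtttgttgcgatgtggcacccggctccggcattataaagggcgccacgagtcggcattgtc
The 250 bases upstream of the start were searched on both strands for 5 motifs in the 33 members with a RefSeq promoter, and overlapping matches of different motifs each counted. CCAAT, bound by NF-Y, was present in 17 of 33, in 7 of the 16 members called lower and in 10 of the other 17, where 33% of 27305 promoters held it. GGGCGG, the GC box, was in 9 of the 16 and 11 of the 17 (42.3% of all promoters), and CACGTG, the E box, in 4 of the 16 and 2 of the 17 (6.49%). AGAACA, the core letters of an androgen response element, was in 3 of the 16 and 1 of the 17 (12.4% of all promoters). The E2F-type letters TTTCGCGC, TTTGGCGC, TTTCCCGC or TTTGCCGC were in 1 of the 16 and 3 of the 17 (2.79% of all promoters). These matches describe letters only.

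Among the remaining HNRNP classes, HNRNPD, also known as AUF1 and a regulator of AU-rich mRNA decay, had 189 to 254 CPM with a median of 219.9 with R1881 + DMSO. With R1881 + enzalutamide it had 189, 181, 162, 180 and 191 CPM. The groups overlapped, since HNRNPD varied more than most members (SD 22.2 CPM with R1881 + DMSO), and the log2 fold change was -0.29 ± 0.06 (adjusted p = 0.000456). Against libraries 51 to 55 it was -0.41 and against libraries 71 to 75 it was -0.17, with a call in each. Its paralog HNRNPDL was not called, at 144 ± 11.7 and 144 ± 7.14 CPM. HNRNPM, which binds GU-rich RNA, was lower without overlap, from 212 ± 11.7 to 179 ± 7.20 CPM (log2 fold change -0.25 ± 0.04), and HNRNPR was lower with overlap, from 182 ± 11.2 to 159 ± 9.93 CPM (-0.20 ± 0.05). Against libraries 51 to 55 and 71 to 75 the log2 fold changes were -0.32 and -0.18 for HNRNPM and -0.26 and -0.13 for HNRNPR, each with a call.

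HNRNPLL, known for its control of CD45 exons in T cells, was also higher. It had 33.6 to 42.6 CPM with a median of 37.7 with R1881 + DMSO and 44.8, 44.8, 40.3, 43.6 and 42.8 CPM with R1881 + enzalutamide. Of the latter, 4 libraries lay above the R1881 + DMSO range, and the log2 fold change was 0.19 ± 0.05 (adjusted p = 0.00459), within the error of that of HNRNPH3. It was 0.12 against libraries 51 to 55 and 0.25 against libraries 71 to 75, with a call in each. HNRNPL, which binds CA repeats, was not called at 286 ± 7.95 and 294 ± 5.89 CPM, but was called higher in the edgeR fit (log2 fold change 0.08, adjusted p = 0.00662) and with plain library totals (0.13, adjusted p = 9.78e-05). Of the U class, HNRNPUL1 was lower, from 119.6 ± 4.48 to 110.4 ± 5.52 CPM (log2 fold change -0.12 ± 0.04, adjusted p = 0.00861), a call that was lost in the edgeR fit (adjusted p = 0.0946) and with plain library totals. HNRNPU, a nuclear scaffold protein, and HNRNPUL2 were not called, at log2 fold changes of -0.01 and -0.06. HNRNPC, HNRNPCL1 and HNRNPCL2 were not called, at 0.06, 0.05 and 0.05, although HNRNPC was called higher in 5 alternatives, namely edgeR (log2 fold change 0.10, adjusted p = 0.00621), DESeq2 (0.08, adjusted p = 0.0477), TMM factors (0.08, adjusted p = 0.0486), plain library totals (0.16, adjusted p = 0.000166) and libraries 51 to 55 alone (0.08, adjusted p = 0.0499). The 95% intervals of the 15 members that were not called lay between -0.17 and 0.22.

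Paralogs were then compared within each library, since a ratio of genes in a library depends little on how the libraries were scaled. In an exact permutation test (two-sided, 3003 regroupings of the libraries) of 17 pairs, the log2 ratio differed between the treatments in 14 at an adjusted p under 0.05. In 7 of them the groups did not overlap, with p = 0.000333, the smallest this design allows, and an adjusted p of 0.000809. Ratios of other gene pairs were not tested, so whether paralogs differ more often than other pairs is not known. Of single genes, 32.7% were called lower and 29.8% higher in the limma fit. The log2 ratio of HNRNPF to HNRNPH1 went from 0.40 ± 0.08 (SD, n = 10) to -0.12 ± 0.07 (n = 5), so that HNRNPF was the higher of the pair in CPM with R1881 + DMSO and the lower with R1881 + enzalutamide. The log2 ratio of HNRNPA1 to HNRNPA3 rose from 0.17 ± 0.04 to 0.53 ± 0.03, and that of HNRNPA2B1 to HNRNPA3 from 0.85 ± 0.07 to 1.04 ± 0.03. The log2 ratio of HNRNPD to HNRNPDL fell from 0.62 ± 0.07 to 0.32 ± 0.02, and that of HNRNPAB to HNRNPD from -0.64 ± 0.10 to -0.92 ± 0.06. Among the SR proteins, the ratio of SRSF2 to SRSF8 fell from 0.26 ± 0.04 to 0.11 ± 0.05 and that of SRSF10 to SRSF12 rose from 5.78 ± 0.10 to 6.32 ± 0.20. Of HNRNPD and SRSF12, the first has a wide spread and the second few reads, which these ratios carry.

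The other 7 ratios that passed overlapped between the groups. SRSF4 fell relative to SRSF6 by 0.25 on the log2 scale (exact permutation test, adjusted p = 0.00315), SRSF5 relative to SRSF6 by 0.14 (adjusted p = 0.019) and SRSF1 relative to SRSF9 by 0.11 (adjusted p = 0.00679). The log2 ratio of SRSF3 to SRSF7 rose by 0.09, that of HNRNPA1 to HNRNPA2B1 by 0.16 and that of HNRNPH1 to HNRNPH2 by 0.07, and that of HNRNPL to HNRNPLL fell by 0.15, with exact permutation adjusted p of 0.00142, 0.00926, 0.0151 and 0.0157. Against a single R1881 series, the calls of SRSF1 to SRSF9, SRSF5 to SRSF6 and HNRNPH1 to HNRNPH2 were lost with libraries 71 to 75, and those of HNRNPA1 to HNRNPA2B1 and HNRNPL to HNRNPLL with libraries 51 to 55. SRSF4 to SRSF5 did not pass over all libraries (difference -0.11, exact permutation adjusted p = 0.238), and its difference was 0.05 against libraries 51 to 55 and -0.27 against libraries 71 to 75, where it passed (adjusted p = 0.0112). HNRNPU to HNRNPUL1 (difference 0.10, adjusted p = 0.142) and HNRNPU to HNRNPUL2 (0.04, adjusted p = 0.135) did not pass the exact permutation test either.

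**Figure D3:**
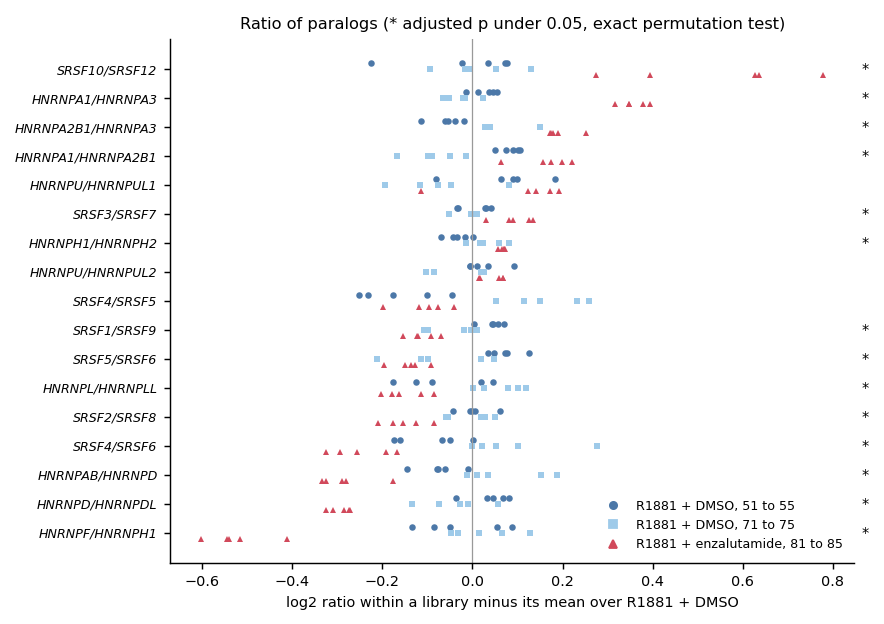
Log2 ratio of the CPM + 0.5 of paralogs in each library, minus its mean over the 10 R1881 + DMSO libraries (horizontal axis), for 17 pairs (vertical axis). Each point is a library, with triangles for R1881 + enzalutamide, and stars mark the 14 pairs with an adjusted p under 0.05. The triangles of HNRNPF/HNRNPH1, HNRNPD/HNRNPDL and HNRNPA1/HNRNPA3 lie apart from all circles and squares.

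Several HNRNP genes have many near-identical processed copies in the genome, so that reads of 50 bases can match more than 1 place, and the sources used here do not say how such reads were counted. Of the 50-base windows of a reference transcript, 40.1% for HNRNPA1, 35.6% for HNRNPA3, 33.7% for HNRNPC, 30.3% for HNRNPK and 21.5% for HNRNPL occurred elsewhere in GRCh38. For HNRNPA1L2, HNRNPCL1 and HNRNPCL2 the share was 55.8%, 58.4% and 55%. The share was 0% for HNRNPF, HNRNPM, HNRNPA2B1, HNRNPLL, HNRNPUL1, HNRNPUL2, SRSF4, SRSF5 and SRSF7, and 1.57% for HNRNPAB.

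HNRNPA1 had 16 copies, counting the member HNRNPA1L2. Their summed mean was 712 CPM with R1881 + DMSO, 168% of the level of HNRNPA1 itself. Of the 15 that passed the filter, 5 were higher and none lower, with a median log2 fold change of 0.10. Among all tested genes 29.8% were higher and 32.7% lower, so the share of higher copies was near that of all genes. HNRNPA1P48, which RefSeq names HNRNPA1L3, rose from 211 ± 13.1 CPM by a log2 fold change of 0.13 ± 0.04 (adjusted p = 0.0111), nearly the value of HNRNPA1. With the copies added to their gene, a setting chosen after the data were seen, HNRNPA1 had a log2 fold change of 0.12 (adjusted p = 0.0132). HNRNPA3 had 10 copies with 51% of its level, 8 of them lower and none higher, and the sum had a log2 fold change of -0.25 (adjusted p = 6.72e-06). Copies amounted to 53.3% of HNRNPC, with the members HNRNPCL1 and HNRNPCL2 counted, 53.2% of HNRNPL and 23.5% of HNRNPK. None of the sums of these 3 genes was called. The copies of HNRNPAB, HNRNPD and HNRNPR, 1 of each, amounted to at most 5.60% of the gene and were lower as well. Since copies and genes share sequence and the counting of such reads is not stated, their values may not be independent of each other. Had a read been counted at each place it matched, these sums would hold it more than once.

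**Figure D4:**
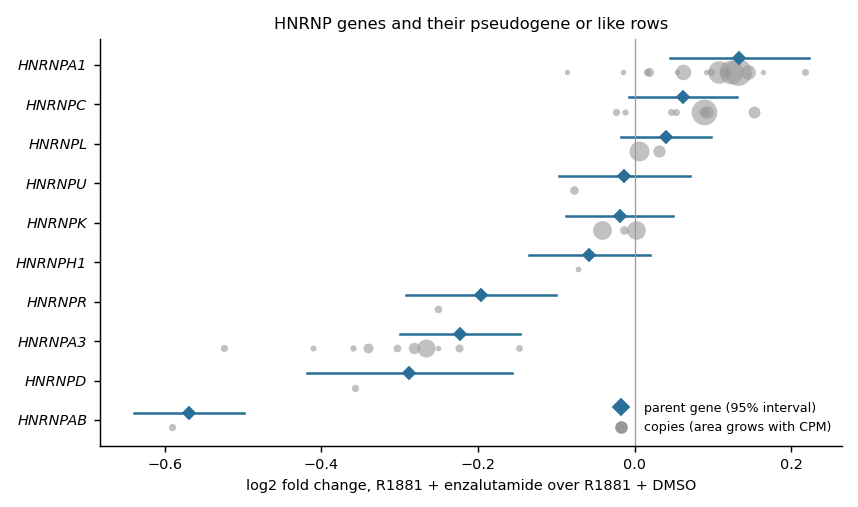
Log2 fold change of R1881 + enzalutamide over R1881 + DMSO (horizontal axis) for 10 HNRNP genes (diamonds with 95% intervals) and for their pseudogene or like rows that were tested (grey circles, area growing with the R1881 + DMSO mean CPM). Copies lay near their gene for HNRNPA1, at a median of 0.10 beside 0.13, and for HNRNPA3, at -0.29 beside -0.22.

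Some members overlap a gene on the opposite strand, and the sources used here do not say whether reads were counted by strand. HNRNPA3 shares 59.8% of its reference transcript with NFE2L2 exons (77.6 and 69.4 CPM), SRSF9 42.6% with GATC (65.4 and 68.5 CPM) and SRSF2 30.1% with MFSD11 (29.5 and 28.8 CPM), each value being the mean with R1881 + DMSO and with R1881 + enzalutamide. NFE2L2 was lower, at a log2 fold change of -0.16, and GATC and MFSD11 were not called. HNRNPAB shares 11.1% with PHYKPL, which was higher (log2 fold change 0.22), opposite to HNRNPAB. Annotated genes on the same strand, none of which has a row, share 100% of the reference transcript of HNRNPA1L2, 45.9% of HNRNPUL2 and 31.6% of SRSF1. They share 26.2% of HNRNPL, 15.8% of HNRNPH2 and 15% of SRSF6. How far shared reads entered the values of any of these members was not tested.

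Other parts of the splicing machinery were counted in the same limma fit for comparison, with lists written from general knowledge. SR proteins are phosphorylated by SRPK and CLK kinases and carried into the nucleus by transportins. Of 11 genes with a row in that list, 5 were lower and 3 higher. SRPK1, the main cytoplasmic kinase, fell from 116 ± 7.19 to 86.7 ± 3.44 CPM (log2 fold change -0.41), and CLK4, a nuclear kinase, rose from 12.8 ± 1.30 to 15.9 ± 0.99 CPM (0.31). Of 27 SR-related proteins 14 were lower and 3 higher, from THRAP3, a splicing and mRNA processing factor at -0.57, to ARGLU1, a nuclear cofactor at 0.34. Of 17 hnRNP-type proteins under other symbols 9 were lower and 4 higher. Their lowest was RALY, a relative of hnRNP C, which fell from 136 ± 16.6 to 73.1 ± 9.29 CPM (-0.89), and their highest PTBP2, the neuronal form of polypyrimidine tract binding protein, which rose from 17.9 ± 1.38 to 29.8 ± 1.67 CPM (0.73).

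In the core spliceosome, 13 of 19 Sm, LSm, U1 and U2 snRNP proteins and 6 of 13 U2AF, SF3A and SF3B genes were lower and none higher. SNRPB, a shared Sm protein, had the lowest log2 fold change of the former at -0.56 and SF3B5 of the latter at -0.48, while SNRPC of U1 (-0.13) and SF3B4 (-0.15) had the smallest called decreases. Of 17 tri-snRNP and PRP19 complex genes 7 were lower and 3 higher, from CRNKL1 at -0.56 to PRPF3 at 0.27, and of 15 genes of nonsense-mediated decay and the exon junction complex 6 were lower and 4 higher, from SMG5 at -0.51 to UPF2 at 0.28. Of 21 other regulators of alternative splicing with a row, 9 were higher and 6 lower. Their log2 fold changes reached 1.69 for NOVA1, a mainly neuronal regulator at 2.98 ± 0.65 and 10.6 ± 1.15 CPM, and fell to -0.86 for ESRP2, an epithelial regulator. The member fold changes thus spanned a narrower range, -0.60 to 0.19, than this list. Those of the Sm, LSm, U1 and U2 snRNP proteins spanned a narrower range still, from -0.56 to -0.05 for SNRPE. Over these splicing lists 66 genes were lower and 26 higher, where 32.7% of all tested genes were lower and 29.8% higher. With plain library totals 44 were lower and 45 higher, where the shares of all genes were 25.2% and 39%. The cell cycle moved with the same comparison, with 41 of 43 S phase genes and 51 of 52 G2/M phase genes lower at median log2 fold changes of -0.81 and -0.87, and its part in the values of the SRSF and HNRNP genes was not tested.

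**Figure D5:**
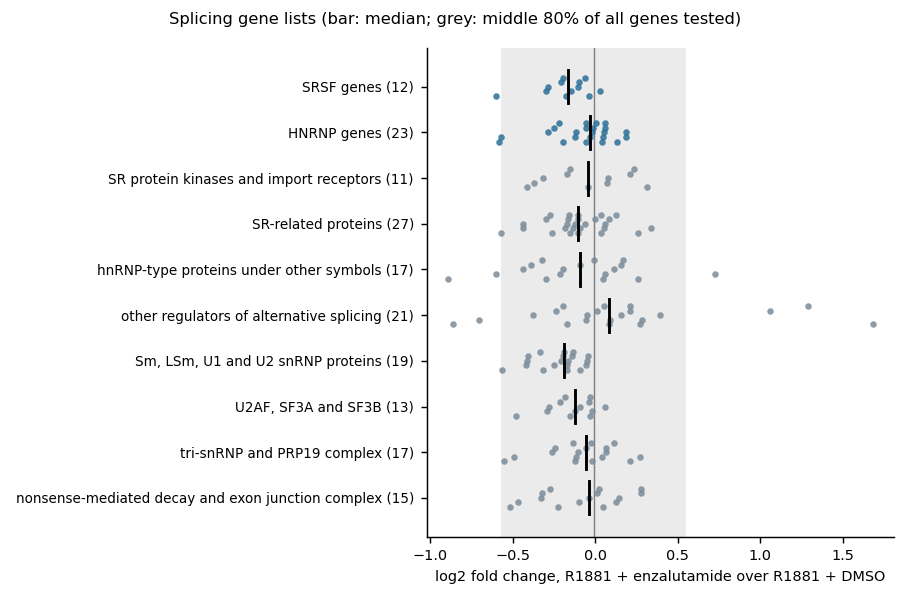
Log2 fold change of R1881 + enzalutamide over R1881 + DMSO (horizontal axis) for the SRSF and HNRNP genes and for 8 other lists of splicing genes (vertical axis, number of genes tested in brackets). Each point is a gene, short bars are list medians, the thin line is the median of all tested genes (-0.01), and the grey band runs from their 10th to their 90th percentile (-0.57 to 0.54). The SRSF median lies at -0.16 and that of the Sm and snRNP proteins at -0.19, and with plain library totals the median of all SRSF and HNRNP genes turned from -0.06 to 0.03.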

How the data were processed

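Polyadenylated RNA of the 15 libraries was prepared with a stranded kit and sequenced as single-end reads of 50 bases. The authors demultiplexed with bcl2fastq 2.17 (per the submitters' processing notes), mapped with STAR to GRCh38 and counted with featureCounts of Subread. The deposited signal is a table of CPM per gene. Its columns sum to 1053406 to 1078567 with R1881 + DMSO and to 985580 to 1008992 with R1881 + enzalutamide. The authors had thus rescaled the library sizes, by an unstated rule. The sums did not overlap between the treatments, so the deposited scaling itself enters every fold change. With plain library totals the median log2 fold change of all tested genes was 0.07, beside -0.01 as deposited. The reason for the difference in sums was not tested. All values (100%) were whole multiples of 1 read within 0.01 reads, which gave back the reads. The methods call the samples biological replicates and give the numbers of 10 and 5 the other way round from the labels, which were followed. Where libraries came from the same culture, p-values would measure technical spread. None of the 55 pairs of libraries of a treatment agreed within sampling noise.

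Genes were tested with limma 3.58.1 in R 4.3.3 (mean-variance trend, log2(CPM + 0.5), mean of at least 0.5, Benjamini-Hochberg adjustment over 17046 genes, threshold 0.05), so fold changes understate those of genes with few reads. Paralog log2 ratios were compared with an exact permutation test, adjusted over the 17 pairs. Alternatives were edgeR 4.0.16 (quasi-likelihood) and DESeq2 1.42.0 on the recovered reads, other pseudocounts, filters, scalings and blocks, each R1881 series alone, a fold of at least 1.5, removal of the GC trend (80.8% of genes matched) and each library left out. The limma step was checked on simulated reads. Positions are from GENCODE 44, and the cell cycle lists from Seurat 5.3.0. The members, the lists and the tests were chosen with earlier results of these data known. Full values are given for the 3 lowest and 3 highest called genes of each family with a mean of at least 5 CPM, the highest member per kb of each class, the pairs that passed and the lowest and highest called gene of each list. Other named genes were chosen after their values were seen. Counting error limits only genes with few reads, such as SRSF12. Some items are not reported here.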

Additional observations from a re-analysis of the deposited data

Results flagged for a closer look

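In 7 of 106 groups of 5 or 10 libraries examined, the most extreme library lay so far from the nearest other that the gap took more of the group's range than Dixon's critical value allows, where about 5.3 are expected by chance. All were R1881 + enzalutamide libraries. Replicate 2 was the lowest for SRSF3 at 263 CPM beside 286 to 292 CPM (gap 0.826 of the range), for HNRNPK at 844 beside 907 to 931 CPM (0.728), for SRSF9 at 165 beside 171 to 172 CPM (0.779) and for the log2 ratio HNRNPU/HNRNPUL1 at 1.98 beside 2.22 to 2.29 (0.778). Without it, SRSF3 was not called (log2 fold change -0.08, limma adjusted p = 0.0524), HNRNPC was called higher (adjusted p = 0.0488), and the ratio HNRNPU/HNRNPUL1 passed at a difference of 0.16 (exact permutation test, adjusted p = 0.0279), while SRSF9 was still called lower.

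Replicate 1 was the highest for SRSF12, at 0.884 CPM beside 0.539 to 0.605 CPM (0.786), values of few reads. Replicate 4 was the highest for the log2 ratio of HNRNPA2B1 to HNRNPA3, at 1.10 beside 1.02 to 1.04 (0.78). Replicate 5 had the most reads, 25416052 (0.73).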

How the results depend on the processing

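Of the 17 members called lower, 11 (HNRNPR, HNRNPA3, HNRNPD, HNRNPAB, HNRNPF, HNRNPM, SRSF1, SRSF2, SRSF4, SRSF7 and SRSF12) kept their call in all 15 alternatives other than the fold and with each library left out, as did HNRNPLL and HNRNPH3 of the 3 called higher, and SRSF12 was not tested at a mean of at least 5. With library totals set to 1000000, 25.2% of all genes were lower and 39% higher. In that setting 11 members were lower and 8 higher, 45 other splicing genes were higher, the median log2 fold change of the members turned to 0.0303, and values turned positive for HNRNPA0 (0.0366), HNRNPA2B1 (0.0644), HNRNPH1 (0.0357), HNRNPK (0.0743, adjusted p = 0.0286), HNRNPU (0.0806), HNRNPUL2 (0.0350), SRSF10 (0.0303) and SRSF6 (0.0568). In edgeR, where genes called lower numbered 4948 and genes called higher 5796, 12 members were lower and 6 higher, and HNRNPA2B1 (0.0154), HNRNPK (0.0245), HNRNPU (0.0301) and SRSF6 (0.00639) turned positive. With a fold of at least 1.5, 1 member was lower and 0 higher, 4 other splicing genes were lower and 4 higher, and 1628 genes were lower and 1544 higher, where every member loses its call but SRSF12 by the construction of that setting. HNRNPU was 0.00186 with TMM factors and HNRNPDL -0.0156 with the GC trend removed, a setting in which SRSF10 (-0.12) and HNRNPH1 (-0.07) were also called lower. In it 19 members were lower and 3 higher, and 39.5% of all genes were lower and 33.4% higher. Against libraries 51 to 55, HNRNPDL was -0.0761, SRSF11 -0.00738 and SRSF4/SRSF5 0.0543. Against 71 to 75, HNRNPK was 0.00728, HNRNPU 0.0474 and SRSF6 0.0230. The causes were not tested. With a replicate block, 15 members were lower and 3 higher, beside 30.7% and 28.4% of all genes. In that setting HNRNPK was 0.00449 and HNRNPU 0.00793, and SRSF3 (adjusted p = 0.08) and SRSF9 (0.0626) lost their calls. No pairing by replicate number was seen, though so few libraries cannot exclude it. The correlations of same-numbered libraries ran from -0.11 to 0.13. For libraries with the same last digit of the library number they ran from -0.64 (53 and 83) to 0.84 (73 and 83). Library 83 is R1881 + enzalutamide replicate 2. A block for that last digit gave 17 members lower and 3 higher, beside 33% and 29.9% of all genes. With each library left out, 16 to 17 members were lower and 3 to 4 higher, and 13 to 15 pairs passed. Of all genes, 31.1% to 33.2% were then lower and 28.1% to 30.6% higher. Values that changed sign ranged from -0.0280 to 0.0134 for HNRNPU, -0.0153 to 0.0358 for HNRNPDL, -0.0572 to 0.00199 for HNRNPA2B1 and -0.0297 to 0.00569 for HNRNPK. The pairs were retested in only 4 alternatives, a pseudocount of 1, each R1881 series alone and copies added to their gene, where 12 to 14 passed.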
